A study of Mus musculus with 6 samples.

Results

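The genes described here are 40 genes that act in G2 and mitosis, taken as a fixed list of symbols and matched to Ensembl identifiers through GENCODE M21 on the mouse genome build GRCm38. All 40 were found among the 55487 gene identifiers of the tables. RNA sequencing had been done on cultured primary hepatocytes of mice on a B6CBAF1 background, with 3 libraries from WT animals and 3 from Alb/MDA-9 littermates. The Alb/MDA-9 animals were heterozygous for a transgene that encodes human MDA-9/SDCBP, the scaffolding protein syntenin, tagged with HA at the C-terminal end. The transgene is driven by a mouse albumin promoter core and an upstream enhancer (albumin is made by hepatocytes). All animals were fed regular chow and all cultures were untreated. The labels give neither the age nor the sex of the animals, nor the time in culture, and they do not say whether the numbered libraries came from separate animals, so a p-value here reflects library-to-library spread alone, and some of that may be technical.

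A cell that has copied its DNA passes through G2 and enters mitosis when the kinase Cdk1, bound to cyclins A and B, becomes active. The genes for the proteins that then condense the chromosomes, build the spindle, attach kinetochores, guard their attachment and divide the cell are switched on together late in the cycle. In cells that do not divide, the DREAM complex holds these genes off, and in dividing cells the transcription factors B-Myb (Mybl2) and Foxm1 act on them through the same DNA-binding core, MuvB. MuvB contacts a short promoter element named the cell cycle genes homology region (CHR), which often lies near the transcription start and downstream of CCAAT boxes bound by NF-Y. Hepatocytes of the adult liver are mostly quiescent and re-enter the cycle after loss of liver tissue, and many of them become polyploid by leaving out the last steps of division.

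Promoter windows of 300 bases, from 250 bases before the RefSeq transcription start to 50 bases after it, were found for 34 of the 40 genes in a RefSeq table on GRCm38.p6, and those of Aurkb, Ccna2, Cdc25c, Foxm1, Kif20a and Tpx2 were not used here. The element was searched as TTTGAA and the box as CCAAT, each on both strands, so that TTCAAA and ATTGG were counted too. Overlaps between a CCAAT and an ATTGG were allowed. The 7 windows printed here, 5′ to 3′ on the strand of the gene with both motifs in capitals, are those of 5 genes that were several-fold lower in Alb/MDA-9 and of 2, Smc2 and Ccnb2, whose levels differed little, so that the layout can be compared between them. They lie at chr7:122159185-122159484 on the plus strand (Plk1), chr15:102296043-102296342 on the plus strand (Espl1), chr11:99024140-99024439 on the minus strand (Top2a), chr10:69352863-69353162 on the minus strand (Cdk1), chr2:164769679-164769978 on the plus strand (Ube2c), chr4:52438971-52439270 on the plus strand (Smc2) and chr9:70421505-70421804 on the minus strand (Ccnb2).
Plk1: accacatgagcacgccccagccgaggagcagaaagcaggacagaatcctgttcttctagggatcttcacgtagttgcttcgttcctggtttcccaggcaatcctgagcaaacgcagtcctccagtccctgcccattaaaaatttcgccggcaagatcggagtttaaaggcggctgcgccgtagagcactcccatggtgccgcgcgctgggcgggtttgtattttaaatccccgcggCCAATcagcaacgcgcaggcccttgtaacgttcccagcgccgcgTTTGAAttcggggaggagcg
Espl1: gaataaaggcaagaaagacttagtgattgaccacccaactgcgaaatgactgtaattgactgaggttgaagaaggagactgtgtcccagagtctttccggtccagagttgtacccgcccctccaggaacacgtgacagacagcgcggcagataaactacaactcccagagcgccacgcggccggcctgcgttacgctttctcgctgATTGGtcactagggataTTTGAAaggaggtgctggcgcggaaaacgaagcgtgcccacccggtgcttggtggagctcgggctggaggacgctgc
Top2a: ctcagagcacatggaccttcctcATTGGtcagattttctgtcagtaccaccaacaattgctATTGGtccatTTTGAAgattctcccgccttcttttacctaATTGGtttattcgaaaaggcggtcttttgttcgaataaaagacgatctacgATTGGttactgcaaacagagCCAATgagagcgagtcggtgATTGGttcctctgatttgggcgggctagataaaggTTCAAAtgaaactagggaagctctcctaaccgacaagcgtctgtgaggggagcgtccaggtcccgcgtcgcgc
Cdk1: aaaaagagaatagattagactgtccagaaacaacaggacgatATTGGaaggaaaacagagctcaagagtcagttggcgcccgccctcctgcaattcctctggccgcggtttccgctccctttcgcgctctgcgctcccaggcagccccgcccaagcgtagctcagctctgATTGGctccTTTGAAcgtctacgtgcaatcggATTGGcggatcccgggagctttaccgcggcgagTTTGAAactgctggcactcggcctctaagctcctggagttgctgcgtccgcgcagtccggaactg
Ube2c: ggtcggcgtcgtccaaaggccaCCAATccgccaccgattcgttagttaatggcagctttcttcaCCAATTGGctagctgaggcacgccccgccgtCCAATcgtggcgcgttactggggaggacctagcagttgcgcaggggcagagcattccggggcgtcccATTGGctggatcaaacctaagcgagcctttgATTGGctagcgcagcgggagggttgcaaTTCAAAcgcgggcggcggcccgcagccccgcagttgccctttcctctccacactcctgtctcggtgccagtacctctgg
Smc2: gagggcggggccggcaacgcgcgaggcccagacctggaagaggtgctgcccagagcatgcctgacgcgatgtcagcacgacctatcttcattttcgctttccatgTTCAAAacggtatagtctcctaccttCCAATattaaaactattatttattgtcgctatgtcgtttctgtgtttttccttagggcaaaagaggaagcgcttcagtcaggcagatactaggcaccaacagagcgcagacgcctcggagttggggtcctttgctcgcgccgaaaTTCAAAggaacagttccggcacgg
Ccnb2: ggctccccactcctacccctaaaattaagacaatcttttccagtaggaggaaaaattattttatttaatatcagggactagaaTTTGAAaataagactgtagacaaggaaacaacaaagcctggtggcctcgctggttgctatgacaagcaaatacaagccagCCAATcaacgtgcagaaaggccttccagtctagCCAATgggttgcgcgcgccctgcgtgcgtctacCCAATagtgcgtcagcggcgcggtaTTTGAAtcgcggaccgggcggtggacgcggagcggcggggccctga

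The element was found in 26 of the 34 windows (76.5%), and in 12.1% of the windows of 10002 tested genes and 17.9% of all 32851 windows of the table. A CCAAT box was found in 27 of the 34 (79.4%), against 38.9% and 37.4%. Both were present in 24 of the 34, against 5.10% of the windows of tested genes. The element sat close to the start: in 24 of the 34 windows a match lay between 40 bases before and 50 bases after it, a range chosen after the positions were seen, against 2.7% of the windows of tested genes. Position 0 is the RefSeq start, and in 5 of the 34 windows that start lay over 100 bases from the start of the gene in GENCODE M21.

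In the printed windows the element begins at position 30 in Plk1, -27 in Espl1, -29 in Ube2c and 4 in Ccnb2, and nearest to the start at -23 in Top2a, -15 in Cdk1 and 26 in Smc2. Each of the 7 holds at least 1 CCAAT box upstream of that element. The windows of Birc5, Mad2l1, Mybl2, Nuf2 and Nusap1 hold neither motif in these letters, which says only that these letters are not in this window. Among the 6 tested genes that did not pass the test between genotypes (Ccnb2, Cdca8, Cenpa, Cenpf, Ckap2 and Cdc20), all 6 windows hold the element and a CCAAT box, and among the 27 windows of genes that passed, 20 hold each of them. A match is a description of the letters and was not tested as a binding site.

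**Figure D1:**
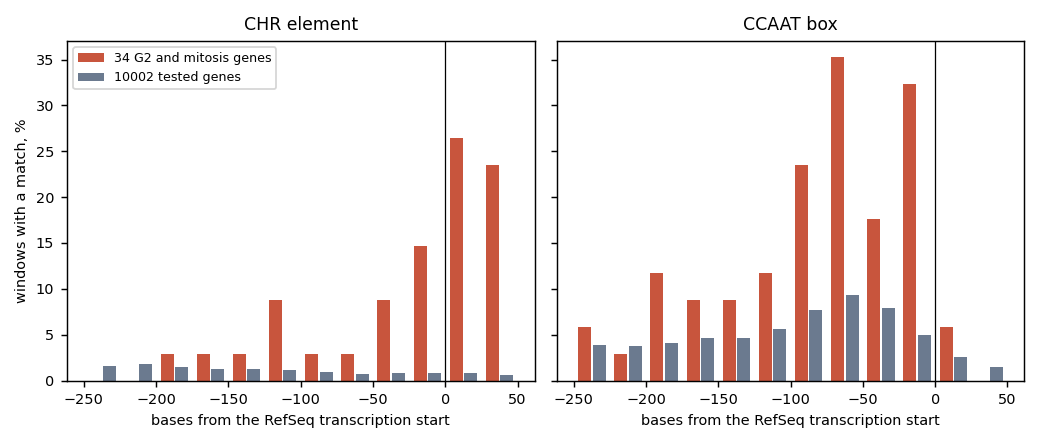
Share of promoter windows with a match to the CHR element (left) or the CCAAT box (right) in bins of 25 bases by distance from the RefSeq transcription start, for 34 G2 and mitosis genes and for 10002 tested genes with 1 window each. In the bin from 0 to 24 bases the element was found in 26.5% of the windows of the G2 and mitosis genes and in 0.820% of those of the tested genes, and CCAAT boxes were most frequent upstream, at 35.3% in the bin from -75 to -51.

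Each library had 16403918 to 19046739 reads on the annotated strand, so that 3 reads, the most that a count of 0 allows, stand for 0.158 to 0.183 CPM (reads scaled to a common library size), a limit that covers counting error only. WT and Alb/MDA-9 libraries separated along principal component 1 (55.5% of the variance). Component 2, with 16.98%, set Alb/MDA-9 3 (score 32.9) apart from Alb/MDA-9 1 and 2 (scores -16.2 and -14.3). Results that rest on Alb/MDA-9 3 are therefore also given without it. Mouse Sdcbp, the endogenous counterpart of the transgene, was at 172 ± 6.94 CPM in WT libraries, against 175 ± 5.66 CPM in those of Alb/MDA-9 (SD, n = 3; edgeR adjusted p = 0.863), and since the transgene is human this does not check the genotype labels. The labelled cell type was checked with 10 hepatocyte markers, which summed to 84667 ± 1752 CPM in WT libraries and 94810 ± 8107 CPM in Alb/MDA-9 libraries and include Alb, Tf (transferrin) and Ahsg. Of these 10, Tf rose and the urea cycle gene Cps1 fell.

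The G2 and mitosis genes were low in WT and lower in Alb/MDA-9. Their summed level, in CPM scaled by TMM factors (normalised read counts), was 276, 256 and 244 in the WT libraries (1 to 3) against 101, 106 and 132 in the Alb/MDA-9 libraries (1 to 3). All Alb/MDA-9 sums lay under the lowest WT sum, and the Alb/MDA-9 mean was 43.6% of the WT mean. Of the 38 genes with enough reads to be tested, 32 fell in Alb/MDA-9 and 0 rose by the quasi-likelihood test of edgeR with Benjamini-Hochberg adjustment at 0.05. At an unadjusted p of 0.05, and by DESeq2, 0 rose too, and all 38 fitted log2 changes were negative. Over all 13296 tested genes 7.09% fell and 7.35% rose. The median log2 change, Alb/MDA-9 over WT, was -1.73 over the 38 genes and 0.00 over all tested genes (5th to 95th percentile -0.84 to 0.52). In bulk RNA, fewer cells in cycle and less of these transcripts per cell cannot be told apart.

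The filter on low counts asks for about 10 reads in 3 libraries, and 14 of the 38 genes met it through their WT libraries only, which selects for genes lower in Alb/MDA-9. These 14 were Plk1, Bub1, Ttk, Cenpf, Ndc80, Nuf2, Kif11, Kif4, Nusap1, Kif23, Racgap1, Cdc20, Ube2c and Espl1. The other 24 met it in the Alb/MDA-9 libraries by themselves too. Of these 24, 20 fell, with a median log2 change of -1.21. With no filter all 40 genes were tested and 35 fell and 0 rose, with a median of -1.79, beside 5.3% lower among 24459 genes. With at least 50 reads asked of every library of a group, 21 of the 40 were left and 18 of these fell, with a median of -1.36, beside 7.84% lower among all genes. Of the 38 genes 28 fell at least 2-fold (2.64% of all tested genes) and 15 at least 4-fold (0.925%). Of the 24 that met the filter in the Alb/MDA-9 libraries too, 16 fell at least 2-fold and 4 at least 4-fold, so 11 of the 15 with the larger falls had been tested through their WT libraries only. Tested against a change of 1.5-fold rather than none, 18 of the 38 genes were lower, beside 1.17% of all tested genes. Among the 24 these were 7, namely Birc5, Ccna2, Cdca3, Cdk1, Mki67, Top2a and Tpx2. In 36 of the 38 all Alb/MDA-9 libraries lay below all WT libraries, which held for 16.5% of all tested genes, and 22 of these 36 were among the 24.

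**Figure D2:**
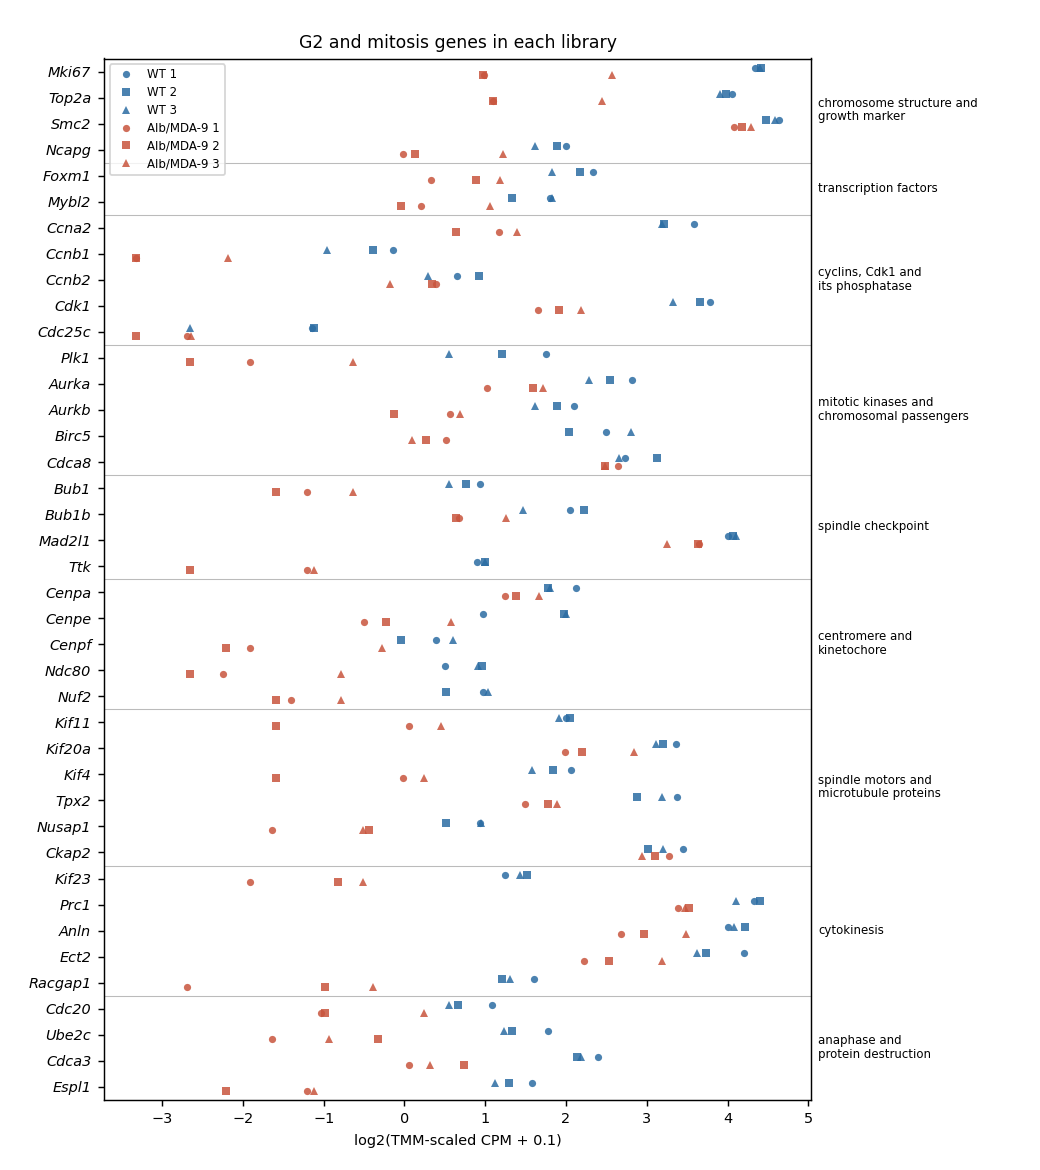
Level of each of the 40 genes in each library as log2 of TMM-scaled CPM plus 0.1, with WT in blue and Alb/MDA-9 in red, 1 symbol per library and genes grouped by role. Blue and red symbols are apart for most genes, and the red triangle of Alb/MDA-9 3 is the rightmost red symbol in 31 of the 40.

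Among the genes for chromosome structure and the growth marker, all 4 fell. Mki67 (ENSMUSG00000031004, chromosome 7, 135689784 to 135716361), whose protein Ki-67 coats mitotic chromosomes and marks cells in cycle, had 20.1, 21.2 and 20.9 CPM in the WT libraries (1 to 3) against 1.88, 1.86 and 5.84 in the Alb/MDA-9 libraries (1 to 3). The groups did not overlap, and Alb/MDA-9 3 stood about 3 times above the other Alb/MDA-9 libraries. The means were 20.8 ± 0.588 and 3.19 ± 2.29 CPM (SD, n = 3). The log2 change was -2.71 (SE 0.31, edgeR adjusted p = 0.000105). Top2a (ENSMUSG00000020914, chromosome 11, 98992943 to 99024189), the topoisomerase that untangles sister chromatids, followed the same order of libraries, with 16.5, 15.7 and 14.9 CPM in WT and 2.04, 2.04 and 5.36 in Alb/MDA-9 (log2 change -2.33, SE 0.28). Without Alb/MDA-9 3 the log2 changes were -3.47 for Mki67 and -2.94 for Top2a.

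The condensin genes changed less. Ncapg, a regulatory subunit of condensin I, had 3.89, 3.59 and 2.96 CPM in WT and 0.884, 0.990 and 2.23 in Alb/MDA-9 (log2 change -1.36, SE 0.34). Smc2, an ATPase subunit that both condensins share, had 24.8, 22.1 and 23.8 CPM in WT and 16.7, 17.9 and 19.4 in Alb/MDA-9, which was 76.5% of the WT mean (log2 change -0.39, SE 0.10, edgeR adjusted p = 0.0246). The groups did not overlap for either gene. The call of Smc2 was lost when any library other than Alb/MDA-9 3 was left out (edgeR adjusted p = 0.0567 to 0.0958). That of Ncapg was lost without WT 1, WT 2, Alb/MDA-9 1 or Alb/MDA-9 2 (0.0577 to 0.0816).

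Both transcription factors fell to about 40% of their WT level. Foxm1 (ENSMUSG00000001517, chromosome 6, 128362967 to 128376146), a forkhead factor that drives genes of G2 and mitosis, had 4.95, 4.41 and 3.43 CPM in WT and 1.16, 1.75 and 2.17 in Alb/MDA-9 (log2 change -1.34, SE 0.28, edgeR adjusted p = 0.0065). Mybl2, which encodes B-Myb, had 3.38, 2.41 and 3.43 CPM in WT and 1.05, 0.874 and 1.99 in Alb/MDA-9 (log2 change -1.24, SE 0.34, edgeR adjusted p = 0.028). Neither gene overlapped between the groups, and the gap was narrow for Mybl2, between 1.99 and 2.41 CPM. The call of Mybl2 was lost without WT 1, WT 3, Alb/MDA-9 1 or Alb/MDA-9 2 (edgeR adjusted p = 0.0764 to 0.103).

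Of the cyclins, Cdk1 and its activating phosphatase, Ccna2 and Cdk1 fell, Ccnb2 did not pass and 2 genes had too few reads to be tested. Ccna2 (ENSMUSG00000027715, chromosome 3, 36564865 to 36572150), the cyclin of S phase and G2, had 11.9, 9.18 and 8.99 CPM in WT and 2.15, 1.46 and 2.53 in Alb/MDA-9 (log2 change -2.29, SE 0.22, edgeR adjusted p = 3.39e-05). Cdk1 (ENSMUSG00000019942, chromosome 10, 69335146 to 69352938), the kinase that starts mitosis, had 13.6, 12.6 and 9.88 CPM in WT and 3.04, 3.67 and 4.46 in Alb/MDA-9, 30.9% of the WT mean (log2 change -1.70, SE 0.19). For both genes the highest Alb/MDA-9 library was well under the lowest WT library. Exosc9 overlaps Ccna2 on the opposite strand, where 1070 reads were counted against 673 on the strand of Ccna2.

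Of the B cyclins, the partners of Cdk1 in mitosis, Ccnb1 was near the limit of detection and Ccnb2 met the filter in both groups. Ccnb1 had 16, 13 and 7 reads in the WT libraries (1 to 3) against 0, 0 and 2 in the Alb/MDA-9 libraries (1 to 3). The ratio of WT to Alb/MDA-9 was 16.6, with a 95% counting interval of 4.28 to 142. The transcripts of Ccnb1 have 5 near-identical copies annotated elsewhere, more than any other gene of the list, among them the processed pseudogene Ccnb1-ps (99.2% identity over 1287 bases). Reads placed equally well at several loci are not counted, so the counts of Ccnb1 may miss part of its transcript. Ccnb2, with no such copy, had 1.46, 1.79 and 1.12 CPM in WT and 1.22, 1.16 and 0.783 in Alb/MDA-9, where the groups overlapped (log2 change -0.47, SE 0.35, edgeR adjusted p = 0.412). Cdc25c, a phosphatase that activates Cdk1, had 15 reads over the WT libraries and 2 over the Alb/MDA-9 libraries, a ratio of 6.92 with a 95% counting interval of 1.61 to 62.4.

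Of the mitotic kinases and the chromosomal passenger complex, which corrects faulty attachments at the centromere and later acts in cytokinesis, 4 of 5 genes fell. Plk1 (ENSMUSG00000030867, chromosome 7, 122159439 to 122169873), a kinase needed from mitotic entry to division, had 3.28, 2.20 and 1.36 CPM in WT and 0.166, 0.0582 and 0.542 in Alb/MDA-9. These are 65, 43 and 23 reads against 3, 1 and 9. The log2 change was -3.16 (SE 0.57, edgeR adjusted p = 0.00283), and -4.26 without Alb/MDA-9 3. Plk1 and the separase gene Espl1 had the 2 lowest fitted log2 changes of the 38 genes, and both were tested through their WT libraries only.

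Birc5, which encodes survivin, a passenger subunit, had 5.55, 4.0 and 6.86 CPM in WT and 1.33, 1.11 and 0.963 in Alb/MDA-9 (log2 change -2.26, SE 0.28). In it Alb/MDA-9 3 was the lowest library. The kinase genes Aurka, which acts at spindle poles, and Aurkb, the catalytic subunit of the passenger complex, fell to 46.1% and 34.5% of the WT mean. Cdca8, which encodes borealin of the same complex, did not pass: it had 6.56, 8.61 and 6.21 CPM in WT and 6.13, 5.47 and 5.48 in Alb/MDA-9 (log2 change -0.33, SE 0.18, edgeR adjusted p = 0.257). The 3 subunits of the complex on the list thus stood at 20.7% (Birc5), 34.5% (Aurkb) and 79.9% (Cdca8) of their WT means, and whether they differ from each other was not tested.

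All 4 spindle checkpoint genes, whose products delay anaphase until every kinetochore is attached, fell. Ttk, which encodes the kinase Mps1, had 1.77, 1.90 and 1.89 CPM in WT and 0.332, 0.0582 and 0.361 in Alb/MDA-9 (log2 change -2.85, SE 0.47, edgeR adjusted p = 0.00162). Bub1, a kinase at the kinetochore, fell to 23.2% and Bub1b, which encodes BubR1, to 46.5% of the WT mean. Mad2l1, which encodes the inhibitor Mad2, had the highest level per kilobase of the 4 and changed least, from 16.0, 16.7 and 17.2 CPM in WT to 12.4, 12.3 and 9.45 in Alb/MDA-9 (log2 change -0.54, SE 0.13, edgeR adjusted p = 0.0151). The groups did not overlap for any of the 4. The call of Mad2l1 was lost without WT 2 or WT 3 (edgeR adjusted p = 0.064 and 0.0578), and that of Bub1b without WT 1, WT 2, Alb/MDA-9 1 or Alb/MDA-9 2 (0.0651 to 0.125).

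Of 5 centromere and kinetochore genes 3 fell. Ndc80 and Nuf2, partners in the complex that grips microtubules, had 1.64 ± 0.289 and 1.72 ± 0.336 CPM in WT libraries, against 0.217 ± 0.231 and 0.330 ± 0.133 CPM in those of Alb/MDA-9 (SD, n = 3). Their log2 changes were -2.91 (SE 0.55) and -2.36 (SE 0.42), and for Ndc80 it was -4.17 without Alb/MDA-9 3. Ndc80 shares stretches of at least 95% identity with 2 annotated copies, 1 of which, 2700099C18Rik, had 48 reads over the WT libraries and 10 over the Alb/MDA-9 libraries, so reads could have been lost or shared between them. Cenpe, a kinesin of the kinetochore, had 1.87, 3.84 and 3.91 CPM in WT and 0.608, 0.757 and 1.38 in Alb/MDA-9 (log2 change -1.80, SE 0.39). Its WT 1 value was less than 1.5 times its Alb/MDA-9 3 value, and its call was lost without WT 2 (edgeR adjusted p = 0.0532).

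Cenpf, a large protein of the outer kinetochore, had 1.21, 0.872 and 1.42 CPM in WT and 0.166, 0.116 and 0.723 in Alb/MDA-9 and just missed the threshold (log2 change -1.80, SE 0.57, edgeR adjusted p = 0.0535). Without Alb/MDA-9 3 it passed, with a log2 change of -2.98 (edgeR adjusted p = 0.00405). It also passed with library totals in place of TMM (0.0413), by the DESeq2 Wald test (0.0482) and with no filter (0.0113), and over all alternatives the adjusted p ran from 0.00405 to 0.379. Cenpa, the histone H3 variant of centromeres, had 4.24, 3.33 and 3.37 CPM in WT and 2.27, 2.50 and 3.07 in Alb/MDA-9 (log2 change -0.48, SE 0.23, edgeR adjusted p = 0.199). Neither gene overlapped between the groups.

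Of 6 genes of spindle motors and microtubule proteins 5 fell. The motor gene Kif11, whose product pushes spindle poles apart, had 3.89, 4.05 and 3.67 CPM in WT and 0.939, 0.233 and 1.26 in Alb/MDA-9 (log2 change -2.25, SE 0.39, edgeR adjusted p = 0.00232). The chromosome-arm motor gene Kif4, on chromosome X, had 4.09, 3.49 and 2.90 CPM in WT and 0.884, 0.233 and 1.08 in Alb/MDA-9. In both motors Alb/MDA-9 2 was the lowest library. Tpx2, the activator of Aurora A at the spindle, fell from 8.86 ± 1.54 to 3.21 ± 0.462 CPM and the microtubule bundler gene Nusap1 from 1.66 ± 0.285 to 0.488 ± 0.232 CPM (SD, n = 3). The Nusap1 call was lost without WT 1 or WT 3 (edgeR adjusted p = 0.06 and 0.0599).

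Kif20a, a motor that carries the passenger complex to the midzone, fell by 0.86 on the log2 scale (SE 0.21, edgeR adjusted p = 0.0161), from 10.2, 9.13 and 8.58 CPM in WT to 3.87, 4.48 and 7.04 in Alb/MDA-9. It overlaps Cdc23 on the opposite strand, and with reads of both strands counted its log2 change was -0.52 (edgeR adjusted p = 0.176). The call was also lost without WT 1, WT 2, Alb/MDA-9 1 or Alb/MDA-9 2 (0.0512 to 0.0766). Ckap2, a spindle-associated protein gene, had the smallest difference of the list, with 10.8, 8.0 and 9.11 CPM in WT and 9.56, 8.50 and 7.59 in Alb/MDA-9. The groups overlapped (log2 change -0.12, SE 0.16, edgeR adjusted p = 0.668).

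All 5 genes of cytokinesis fell, by sizes that fall in 2 ranges. The 2 genes with the larger falls, Kif23 and Racgap1, were tested through their WT libraries only, and the other 3 met the filter in both groups. Kif23 and Racgap1, which together form the centralspindlin complex of the midzone, had 2.55 ± 0.253 and 2.50 ± 0.380 CPM in WT libraries, against 0.411 ± 0.223 and 0.375 ± 0.305 CPM in those of Alb/MDA-9 (SD, n = 3), 16.1% and 15% of the WT means. Racgap1 had 1, 7 and 11 reads in Alb/MDA-9 1 to 3, against 58, 43 and 40 in WT, and its log2 change of -2.74 was -3.42 without Alb/MDA-9 3. The other 3 kept 44.2% to 56.2% of their WT level. Ect2, which encodes the exchange factor that activates RhoA at the midzone, had 18.3, 13.2 and 12.2 CPM in WT and 4.59, 5.71 and 9.03 in Alb/MDA-9 (log2 change -1.18, SE 0.23). The contractile ring scaffold gene Anln had 16.0, 18.6 and 16.7 CPM in WT and 6.30, 7.69 and 11.1 in Alb/MDA-9. The midzone crosslinker gene Prc1 had 20.0, 21.1 and 17.2 CPM in WT and 10.4, 11.4 and 11.0 in Alb/MDA-9, where the 3 libraries lay within 10.4 to 11.4.

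Of the 4 genes of anaphase and protein destruction 3 fell. Espl1, which encodes separase, the protease that opens cohesin, had 2.88, 2.36 and 2.07 CPM in WT and 0.332, 0.116 and 0.361 in Alb/MDA-9, 11.1% of the WT mean (log2 change -3.15, SE 0.42, edgeR adjusted p = 0.000378). Ube2c, the ubiquitin-conjugating enzyme of the anaphase-promoting complex, had 3.33, 2.41 and 2.25 CPM in WT and 0.221, 0.699 and 0.421 in Alb/MDA-9 (log2 change -2.57, SE 0.41). Cdca3, which is linked to the destruction of the Cdk1 inhibitor Wee1, fell to 26.3% of the WT mean. Cdc20, the activator of the complex, had 2.02, 1.49 and 1.36 CPM in WT and 0.387, 0.408 and 1.08 in Alb/MDA-9 and missed the threshold (log2 change -1.38, SE 0.44, edgeR adjusted p = 0.0524), passing without Alb/MDA-9 3 (log2 change -2.02, edgeR adjusted p = 0.00749). It also passed with library totals (0.0386), upper-quartile factors (0.0496) and no filter (0.0143), and over all alternatives the adjusted p ran from 0.00749 to 0.436. The groups did not overlap for any of the 4.

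**Figure D3:**
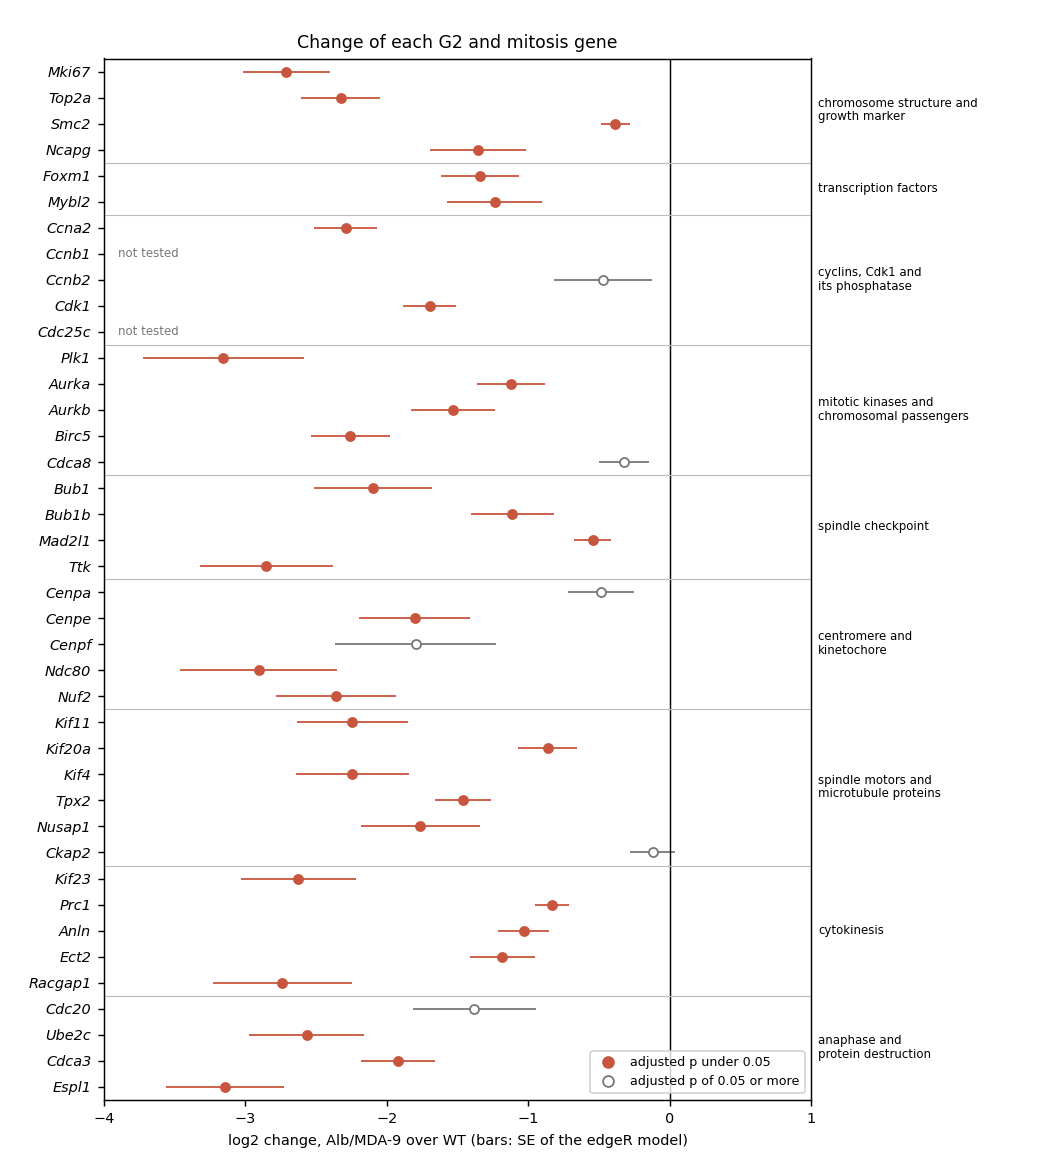
Log2 change of each gene, Alb/MDA-9 over WT, with the SE of the edgeR model as bars, grouped by role. Filled red points passed at an adjusted p of 0.05, open grey points did not, and Ccnb1 and Cdc25c were not tested. All 38 points lie left of 0, from -3.16 for Plk1 to -0.12 for Ckap2.

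The Alb/MDA-9 libraries were not alike. Against the WT mean of each gene, the median over the 40 genes was 24.3% in Alb/MDA-9 1, 25.7% in Alb/MDA-9 2 and 38.9% in Alb/MDA-9 3. Alb/MDA-9 3 was the highest of its group in 31 of the 40 genes, and in 36.7% of all tested genes. In 30 of these 31 it was still below every WT library, the exception being Cdc25c. In 12 of 39 genes it was at least 2 times the mean of the other Alb/MDA-9 libraries, among them Ndc80 (5.71 times), Cenpf (5.12 times), Plk1 (4.84 times) and Mki67 (3.12 times). The first 3 of these had 1 to 3 reads in each of Alb/MDA-9 1 and 2. The share of all tested genes at 2 times or more was not counted, so it is not known whether 12 of 39 is unusual.

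The 9 genes in which Alb/MDA-9 3 was not the highest were Ccnb2, Birc5, Cdca8, Mad2l1, Nusap1, Ckap2, Prc1, Ube2c and Cdca3. Without Alb/MDA-9 3, 35 of 39 tested genes fell (median log2 change -1.94), beside 8.82% lower among all tested genes. Among the WT libraries, WT 1 was the highest in 22 of the 40 genes (36.8% of all tested genes) and WT 3 the lowest in 22 (32.8% of all tested genes). The medians against the WT mean were 111%, 99.9% and 92.3% in WT 1 to 3.

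**Figure D4:**
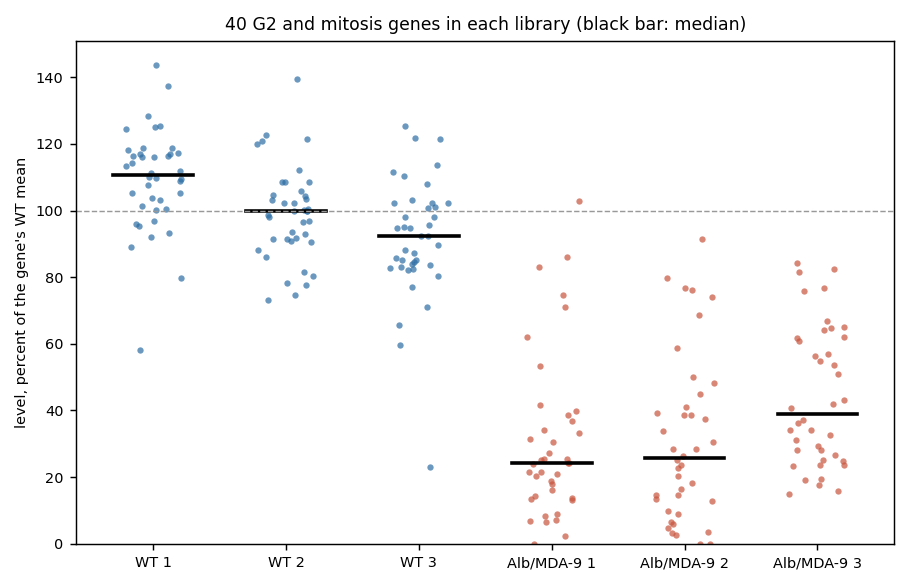
Level of each of the 40 genes in each library as a percent of the WT mean of that gene, with 1 point per gene and the median as a black bar. The Alb/MDA-9 medians were 24.3%, 25.7% and 38.9%, against 92.3% to 111% in the WT libraries.

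Levels can be compared between genes only per length, here as mean CPM per kilobase of annotated exon. In WT, Smc2 was highest at 4.30 ± 0.250 (SD, n = 3), followed by Ckap2 at 2.89 ± 0.440, Ect2 at 2.7 ± 0.605, Ccna2 at 2.46 ± 0.401 and Cdk1 at 2.44 ± 0.392. From Ckap2 to Cdk1, neighbours in this order differed by less than 1 SD, whereas Smc2 stood further apart. In Alb/MDA-9 the order differed, and Smc2 at 3.29 ± 0.248, Ckap2 at 2.66 ± 0.307 and Mad2l1 at 1.36 ± 0.198 led. Mki67 went from rank 9 in WT to rank 21 in Alb/MDA-9 and Ccna2 from rank 4 to 13, whereas Mad2l1 went from 10 to 3 and Cdca8 from 16 to 7. These ranks use all annotated exons as the length, and the transcripts in use may be shorter.

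The genes are spread over 17 chromosomes, with at most 7 on a chromosome, chromosome 2, which holds Mybl2, Aurka, Bub1, Bub1b, Tpx2, Nusap1 and Ube2c. All 7 of these fell. Transcripts of 33 of the 40 genes had no other annotated transcript of at least 95% identity over 200 bases. Of the 7 that had, Mki67, Mad2l1, Racgap1, Cdc20 and Mybl2 had a single copy each, and these copies held at most 6 reads over all libraries.

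A longer list of 76 other G2 and mitosis genes, none of them among the 40, was lower too. Of 70 tested, 28 fell and 1 rose (median log2 change -0.79). Of the 52 that met the filter in the Alb/MDA-9 libraries too, 16 fell, with a median of -0.57. Among the 28 that fell, the kinase gene Pbk went from 3.36 ± 0.293 to 0.485 ± 0.109 CPM and the spindle gene Hmmr from 2.62 ± 0.285 to 0.155 ± 0.168 CPM. The condensin II gene Ncapg2 went from 16.3 ± 1.79 to 7.29 ± 1.25 CPM and Shcbp1, a gene of late cytokinesis, from 2.12 ± 0.350 to 0.250 ± 0.0881 CPM (SD, n = 3). Of these, Pbk, Hmmr and Shcbp1 had 1 to 10 reads in each Alb/MDA-9 library and were tested through their WT libraries only. Hjurp, the chaperone that loads Cenpa at centromeres, was the gene that rose, from 76.3, 76.7 and 73.3 CPM in WT to 95.6, 97.8 and 101 in Alb/MDA-9 (log2 change 0.38, SE 0.07, edgeR adjusted p = 0.00258). Ckap5 and Smc4, highest in CPM (not scaled by length) of those not called, had 36.1 ± 3.48 and 33.8 ± 5.56 CPM in WT libraries, against 35.1 ± 4.05 and 28.5 ± 1.69 CPM in those of Alb/MDA-9. The count of 28 was 15 without WT 2 and 18 without WT 3.

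The subunits of the anaphase-promoting complex and of cohesin with its loaders, machinery that non-dividing cells also express, had a median log2 change of 0.05. Of 24 tested, 1 fell and 1 rose, a share near the background of 7.09% lower and 7.35% higher. Anapc11, the catalytic RING subunit, fell from 18.4 ± 1.69 to 13.1 ± 2.64 CPM. Fzr1, which encodes Cdh1, the activator of the complex in G1, rose from 28.8 ± 0.815 to 36.4 ± 0.987 CPM (log2 change 0.34, SE 0.08, edgeR adjusted p = 0.0136). The cohesin genes Wapl and Smc1a, chosen like these by CPM among those not called, had 145 ± 13.7 and 126 ± 21 CPM in WT libraries, against 152 ± 9.74 and 129 ± 4.74 CPM in those of Alb/MDA-9.

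Of 14 genes of the DREAM and MuvB complexes and their E2F relatives, 2 fell, beside 7.09% of all tested genes. The median log2 change of the 14 was -0.16. The 2 that fell were the atypical E2F repressor genes, E2f7, from 5.0, 4.26 and 3.91 CPM in WT to 0.387, 1.28 and 0.843 in Alb/MDA-9 (log2 change -2.39, SE 0.34), and E2f8, from 15.2 ± 3.95 to 6.81 ± 1.49 CPM. E2f7, with 7, 22 and 14 reads in Alb/MDA-9 1 to 3, was tested through its WT libraries only. Both E2f7 and E2f8 are themselves expressed in S phase and G2. E2f4 and Rbbp4, chosen by CPM among those not called, had 131 ± 6.09 and 74.8 ± 3.95 CPM in WT libraries, against 124 ± 9.38 and 70.3 ± 6.18 CPM in those of Alb/MDA-9.

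Of 31 S phase genes 24 fell (median log2 change -0.55, beside -1.21 for the 24 G2 and mitosis genes that met the filter in the Alb/MDA-9 libraries too). The 52 other G2 and mitosis genes that met it there had a median of -0.57, and 16 of them fell. The S phase median is over all 31 tested genes, without that restriction, so it is not on a like footing with these 2 medians. Without the restriction the medians were -1.73 for the G2 and mitosis genes and -0.79 for the other genes of that phase. The nucleotide synthesis genes Tk1 and Rrm1 fell from 4.49 ± 1.18 to 0.847 ± 0.130 and from 44.7 ± 0.201 to 28.9 ± 1.74 CPM, the cyclin gene Ccne2 from 20.4 ± 0.567 to 9.38 ± 1.41 CPM and Uhrf1, which maintains DNA methylation, from 25.2 ± 3.57 to 9.79 ± 3.16 CPM. Alb/MDA-9 3 was the highest of its group in 21 of the 31 S phase genes and in 41 of the 76 other G2 and mitosis genes. The promoter element was found in 3 of 26 windows of S phase genes (11.5%), in 33 of 61 of the other G2 and mitosis genes (54.1%) and in 3 of 20 of the anaphase-promoting complex and cohesin genes (15%).

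**Figure D5:**
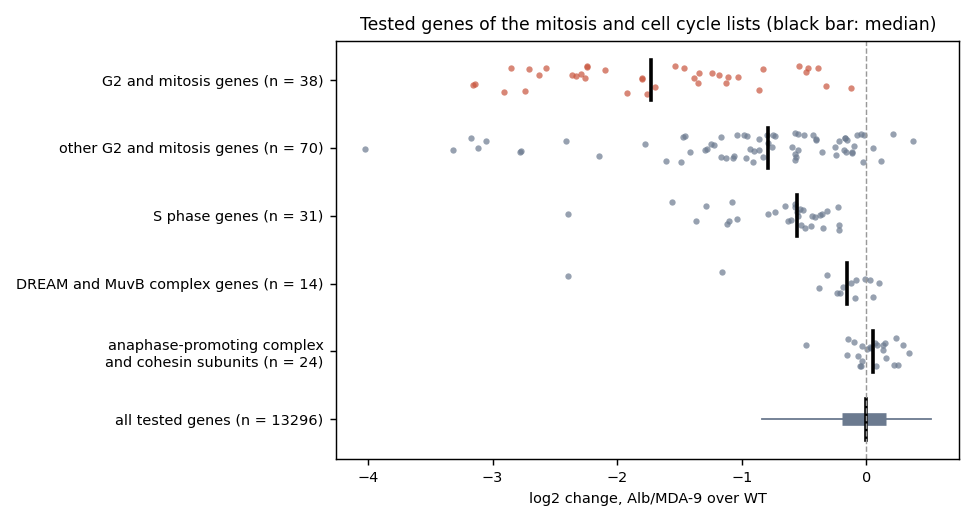
Log2 change, Alb/MDA-9 over WT, of the tested genes of 5 lists, 1 point per gene, with the median as a black bar. For all 13296 tested genes the thick bar spans the 25th to 75th percentile (-0.20 to 0.16) and the thin line the 5th to 95th. The median was -1.73 for the G2 and mitosis genes, -0.79 for the other genes of that phase, -0.55 for S phase genes, -0.16 for DREAM and MuvB genes and 0.05 for the anaphase-promoting complex and cohesin. The first 2 lists include genes tested through their WT libraries only, as does the DREAM and MuvB list with E2f7. For the S phase genes this was not counted.

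Markers of other liver cells also differed between the genotypes. Of 12 markers of Kupffer cells, the liver macrophages, 9 fell (median log2 change -0.67). Their summed level was 419 to 431 CPM in the WT libraries and 396, 373 and 242 in Alb/MDA-9 1 to 3. Cd68 made up most of that sum, with 271 ± 11.4 CPM in WT libraries, against 248 ± 97.5 CPM in those of Alb/MDA-9. Of 12 endothelial markers 4 fell, among them Cdh5, with sums of 274 to 296 CPM in WT and 213 to 233 CPM in Alb/MDA-9. Of 12 stellate cell and fibroblast markers 6 fell, among them Dcn and Ecm1, with sums of 457 to 461 CPM in WT and 320 to 373 CPM in Alb/MDA-9.

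The order of the Alb/MDA-9 libraries was not the same in these lists. The Kupffer and stellate sums were lowest in Alb/MDA-9 3, where the sum of the G2 and mitosis genes was the highest of the group. The endothelial sum was also highest there (214, 213 and 233 CPM in Alb/MDA-9 1 to 3). The low sums rest on Cd68 (322, 284 and 137 CPM) and Reln (168, 146 and 101 CPM). Of the other Kupffer and stellate markers named by level, Dcn was lowest in Alb/MDA-9 3, whereas C1qa, C1qb and Ecm1 were highest there. The summed levels in Alb/MDA-9 were 79.6%, 76.6% and 76.1% of WT for Kupffer, endothelial and stellate markers, and 43.6% for the G2 and mitosis genes. Cd68 and Reln kept 91.4% and 92.7% of their WT means, so the Kupffer and stellate sums fell less than the typical marker. By gene, the median log2 change was -0.67 (Kupffer), -0.33 (endothelial) and -0.54 (stellate), against -1.73 for the tested G2 and mitosis genes. For the 24 of these that met the filter in the Alb/MDA-9 libraries too, it was -1.21. Cholangiocyte and mesothelial markers went both ways (of 7 tested, 3 rose and 2 fell, Krt7 by 1.71 and Msln by 3.26 on the log2 scale), their sum went from 259 ± 15.4 to 538 ± 21.2 CPM (SD, n = 3), and Upk3b had 0 reads, with Cldn4 at 196 ± 13.5 and 454 ± 21.8 CPM. Lymphocyte markers summed to at most 1.22 CPM in any library, and Cd3d, Ms4a1, Nkg7, Ncr1 and Gzma had 0 reads in all 6 libraries. Of 9 neutrophil and monocyte markers 3 were tested and 1 fell (Plac8), with sums of 6.10 to 7.12 CPM in WT and 3.73 to 4.27 CPM in Alb/MDA-9, and Ly6g and Retnlg had 0 reads. Alas2, an enzyme of heme synthesis, fell as the one tested marker of red blood cell precursors, while Epor had 0 reads, with list sums of 32.8 to 39.7 CPM in WT and 28 to 30.9 CPM in Alb/MDA-9. The part of these cells in the lower G2 and mitosis levels was not tested.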

How the data were processed

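The 40 genes, the lists and the tests were chosen with earlier results of these data known. The authors deposited STAR read counts per gene, not normalised, with a column for both strands and 1 for each strand. The submitters' processing notes name STAR 2.7.9a, Trim Galore 0.6.6, FastQC 0.11.2 and edgeR 3.18.1, with mm10 and GRCm38 as builds. For annotation release and options nothing is given in the sources used here. The reverse-strand column was used (97.1% of stranded reads in the median library); the 4 summary rows (unmapped 9.22% to 10.4%, several places 18.7% to 20.2%, outside genes 4.90% to 6.01%, several genes 0.791% to 0.835% of reads) were left out. GENCODE M21 held 55227 of 55487 gene identifiers. Counts were filtered with filterByExpr (minimum count 10), scaled by TMM and tested over 13296 genes with the quasi-likelihood test of edgeR 4.0.16 in R 4.3.3, without covariates (4 residual degrees of freedom, Benjamini-Hochberg 0.05). SE is the size of the log2 change divided by the square root of F. The procedure was tested on simulated data. Levels are TMM-scaled CPM. Copies were sought with blastn 2.17.0 (at least 95% identity over 200 bases). All 40 genes may be named; from other lists, the 4 genes of lowest adjusted p in each direction without overlap and the 2 uncalled of highest CPM, and from marker lists the 3 of highest CPM and those at 0. Cps1, Krt7 and Msln were named after their values were seen. Some markers at 0 are not reported here. Alternatives were other scalings, filters and strands, DESeq2 1.42.0, leaving out each library, a replicate block and a test against a fold of 1.5.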

Additional observations from a re-analysis of the deposited data

Results flagged for a closer look

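Reads on the strand opposite to a gene are not used in the comparison. For 5 of the 40 genes they made up over 10% of the reads at the locus and were above 3 reads in every library. Ccna2 had 1070 opposite-strand reads over all libraries (61.4% of the reads of both strands), Prc1 458 (21.6%), Kif20a 303 (27.7%), Ncapg 118 (30.6%) and Aurka 109. The annotation places Exosc9, Rccd1, Cdc23 and Lcorl on the opposite strand at the first 4 of these loci. Ccna2 had 175, 169 and 164 such reads in the WT libraries (1 to 3) against 211, 217 and 134 in the Alb/MDA-9 libraries (1 to 3), and Kif20a 51, 57 and 31 against 68, 44 and 52. In the other 35 genes opposite-strand reads were at most 10% of the total.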

How the results depend on the processing

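The direction of the log2 change was lower in Alb/MDA-9 in all 15 alternatives for 37 of the 38 tested genes where they could be tested; Ckap2, not called, ranged from -0.22 to 0.0023 when 1 library was left out, the last without WT 1. Of the 32 genes that fell, 24 passed in every alternative that tested them other than the test against a fold of 1.5, and 18 in that test too (10 of these were not tested under the filter of 50 reads), where 18 genes of the list passed (1.17% of all genes), 9 of the other G2 and mitosis genes and 240 genes in all. With at least 50 reads in every library of a group, 21 genes were tested and 18 fell (median -1.36), and 20 had no overlap. There 16 of the other G2 and mitosis genes fell. That filter left 10647 genes in all, and how many of the other G2 and mitosis genes were among them was not counted. Library totals in place of TMM moved the median of all genes to -0.11 and gave 525 higher and 1622 lower genes against 977 and 943; 34 of the 38 fell there. Upper-quartile factors gave 722 higher and 1087 lower. Leaving out 1 library at a time gave 26 to 35 genes lower and 0 higher, medians of -1.94 to -1.57, 1018 to 2386 genes in all (1168 without WT 1, 1018 without WT 2, 1131 without Alb/MDA-9 2) and 15 to 36 of the other G2 and mitosis genes. Libraries of the same number did not deviate together (correlations of -0.04, 0.00 and -0.06 across genes), and those of different numbers had -0.03 to 0.07. With 3 libraries per group these values cannot show whether the libraries were paired, and the main fit uses no pairing. With the replicate block 33 of the 38 fell, Cenpf among them (edgeR adjusted p = 0.0429), and 0 rose (median -1.74), and 1601 genes were called in all. At this depth 9 genes had an Alb/MDA-9 library at 3 reads or fewer, where the size of a fall is poorly fixed.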
